A study of Mus musculus with 9 samples.

Results

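The Hox genes of the mouse lie in 4 clusters and encode homeodomain transcription factors. Members were the rows of the deposited gene table annotated as protein coding and named Hoxa, Hoxb, Hoxc or Hoxd followed by digits alone. This gave 40 of the 54838 rows and 39 gene names, with 11 names in the Hoxa cluster, 10 in Hoxb, 9 in Hoxc and 9 in Hoxd. Hoxd4 has 2 rows, of which ENSMUSG00000101174 held 0 counts in every library and ENSMUSG00000115956 held the reads. A mean normalized count of at least 5 over the 9 libraries was required for testing, and 34 members passed this filter. The 6 rows that did not pass were Hoxa13 with 2 counts in all, Hoxb1 with 35, Hoxb13 with 0, Hoxc12 with 1, Hoxc13 with 8 and the empty Hoxd4 row.

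Within a cluster the genes follow each other in the order of their paralog numbers, and genes with the same number in different clusters descend from a common ancestor. Low-numbered genes are generally switched on earlier and further forward in the embryo than high-numbered ones, and their combination gives a tissue its position along the body. In the embryonic kidney, the Hox11 genes act in the metanephric mesenchyme upstream of Six2 and Gdnf, the Hox10 genes are needed in the renal stroma, and the Hoxb7 promoter is active in the ureteric bud.

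The libraries came from CD133-sorted kidney cells of CD1 embryos at E18.5, which the labels name proximal tubule cells, with 3 libraries in each of 3 groups. Control embryos were Tsc1 fl/fl with no Cre, although their sample titles call them wild type, and their dams received vehicle (DMSO). Mutant embryos were Six2 Cre Tsc1 fl/fl, with vehicle in one group and rapamycin, an inhibitor of the mTORC1 kinase complex, in the other. Rapamycin was given to the dams at 0.2 mg/kg every other day between E12.5 and E16.5. All embryos in these groups thus carried floxed Tsc1 alleles, and the Six2 Cre transgene is active in nephron progenitors and so leaves stroma, endothelium and ureteric bud without Cre. Controls on rapamycin were not analysed here. Whether a replicate is an embryo, a litter or a pool is not in the labels, so the p-values speak only of library-to-library spread, some of which may be technical.

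Library totals ran from 23372093 to 32669791 counts. Tsc1, which encodes hamartin, a brake on mTORC1, measured 2041, 1744 and 1439.5 normalized counts in the controls, 1569.9, 1747 and 1624 in mutants on vehicle and 1539, 1686 and 1526 in mutants on rapamycin. These ranges overlap. No source used here names the floxed exons, and a gene total need not fall when exons are removed, so Tsc1 does not check the genotype labels. All 8 proximal tubule markers examined were measured and passed the filter, and so did all 6 nephron progenitor, all 10 ureteric and collecting duct and all 10 stromal markers, so the sorted cells held RNA of several cell types. In bulk RNA of this kind, a change in how many cells of a type are present and a change in RNA per cell cannot be told apart.

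The stretches below are from the homeobox, the 180 bases that encode the DNA-binding domain. They are shown for 6 of the 7 members that passed the test in any comparison and for the Hox11 genes known in the kidney. Each is 54 bases of a GENCODE M21 transcript, 5′ to 3′, around the third helix, which contacts DNA. Capitals mark the 18 bases that encode its conserved core.
Hoxc4: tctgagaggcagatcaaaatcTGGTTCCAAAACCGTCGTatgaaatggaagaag
Hoxc6: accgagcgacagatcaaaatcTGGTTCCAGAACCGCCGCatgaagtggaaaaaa
Hoxa10: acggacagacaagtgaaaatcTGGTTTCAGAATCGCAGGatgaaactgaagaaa
Hoxc10: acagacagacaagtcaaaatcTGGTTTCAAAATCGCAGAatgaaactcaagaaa
Hoxd10: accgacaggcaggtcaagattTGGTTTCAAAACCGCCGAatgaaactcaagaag
Hoxa11: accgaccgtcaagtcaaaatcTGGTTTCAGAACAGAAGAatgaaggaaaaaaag
Hoxc11: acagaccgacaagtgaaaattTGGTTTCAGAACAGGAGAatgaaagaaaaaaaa
Hoxd11: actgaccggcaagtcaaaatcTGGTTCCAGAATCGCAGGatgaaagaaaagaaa
Hoxd12: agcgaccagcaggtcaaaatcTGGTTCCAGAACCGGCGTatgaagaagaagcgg
Across all homeobox pairs, members with the same paralog number shared a median of 80.6% of the 180 bases (range 67.2% to 93.9%, 42 pairs), against 61.7% for different numbers in the same cluster (172 pairs). Hoxc10 shared 82.8% with Hoxd10 and 80.6% with Hoxa10, but 59.4% with Hoxd12. Despite this likeness, no run of 75 bases, the sequencing cycle number, was shared between members, except for exon sequence that 2 genes have in common at the same place. Hoxc5 and Hoxc10 share 94 such windows, 3.12% of those of Hoxc5 and 5.12% of those of Hoxc10. Hoxd3 shares 59% of its windows with the empty Hoxd4 row and the overlapping gene Gm28230. The Hoxd4 row that held the reads has no transcript in GENCODE M21, so its sharing could not be assessed. The counts of Hoxd3 and Hoxd4 are therefore uncertain. Hoxd11 shares 9.44% of its windows with genes that are no members.

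Levels between genes are compared as normalized counts per kilobase of exon not shared with another gene on the same strand. In control cells the levels were mostly high for numbers from 2 to 11 and low at the ends of the clusters. In the controls Hoxb6 had the highest mean level at 869 ± 21.3 per kb (SD, n = 3), followed by Hoxa10 at 867 ± 136, Hoxc10 at 786 ± 66.7 and Hoxd9 at 758 ± 180.3. The mean ± SD intervals of these 4 genes overlap, so their order is not fixed by these libraries. Hoxd12 measured 37.3 ± 7.13 per kb, Hoxd1 7.9 ± 3.45 and Hoxd13 4.68 ± 0.981. Summed by paralog number, the Hox10 genes gave the highest control level, 2362 per kb over 3 genes. The Hox11 genes summed to 1092 per kb, of which Hoxa11 had 547 ± 51.8, Hoxd11 454 ± 65.5 and Hoxc11 90.5 ± 31.5. Antisense exons cover 52.9% of the exons of Hoxb3 and 35% of those of Hoxa11. The kit was stranded, but no source used here says whether counting used strand. The effect of the overlaps with Hoxb3os and Hoxa11os on the counts of Hoxb3 and Hoxa11 is therefore not known.

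**Figure D1:**
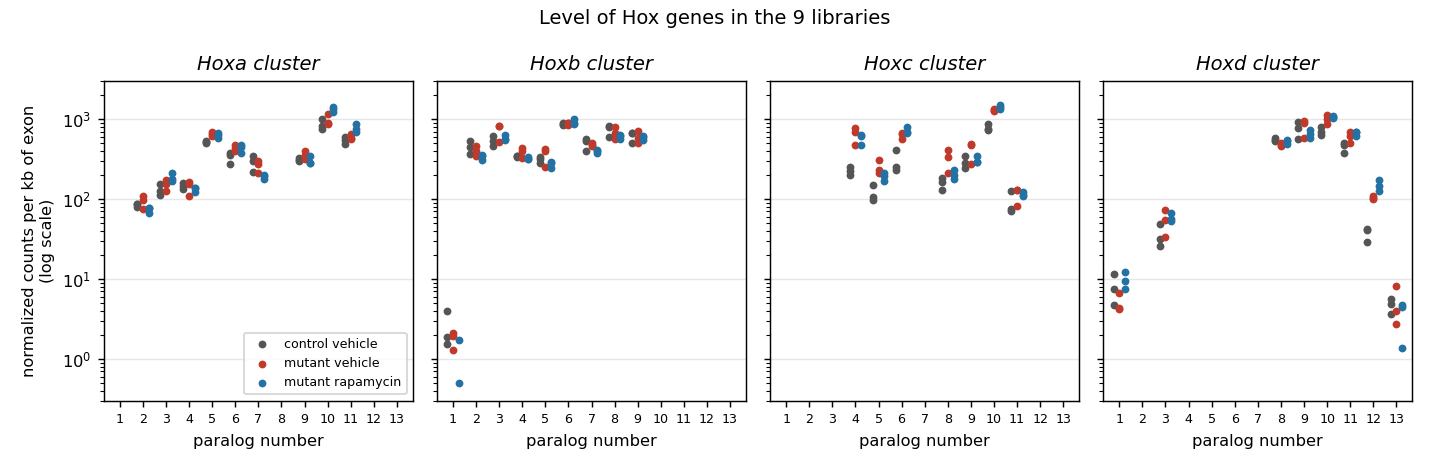
Normalized counts per kb of exon (log scale) of the Hox genes shown by paralog number, 1 panel per cluster and 1 point per library, with controls in grey, mutants on vehicle in red and mutants on rapamycin in blue. Hoxb1 is listed at 0 in mutant rapamycin 3 and that point cannot be drawn on a log axis, and Hoxd4 is left out because its counted row has no length in GENCODE M21. The highest points belong to Hoxa10, Hoxc10 and Hoxd10, and the control means of Hoxb1, Hoxd1 and Hoxd13 are 7.9 per kb or less.

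The first comparison set mutants on vehicle against controls, which differ in the Six2 Cre transgene on floxed Tsc1 alleles. Most of the calls fell in the Hoxc cluster. Hoxc4, Hoxc5, Hoxc6, Hoxc10 and, in another cluster, Hoxd12 rose, and no member fell. These are 5 of the 34 tested members (14.7%), beside 1.42% of all 19656 genes called in either direction by limma with Benjamini-Hochberg adjustment, 1.05% higher and 0.366% lower. The members' median log2 fold change was 0.18, and that of all genes -0.01, with 24 of 34 members above 0. By cluster, 4 of 7 tested Hoxc genes, 1 of 9 Hoxd genes, 0 of 10 Hoxa genes and 0 of 8 Hoxb genes passed. All 7 Hoxc genes lay above 0, with a median log2 fold change of 0.98 and a range of 0.35 to 1.50, while the medians of Hoxa, Hoxb and Hoxd were 0.16, -0.01 and 0.10. The groups did not overlap in 10 members, 9 higher and 1 lower, beside 13.3% of all genes, 7.2% higher and 6.14% lower. The 9 higher members were the 5 that passed with Hoxa5, Hoxa6, Hoxc8 and Hoxd10. The lower member was Hoxd8, at 1450.5, 1574 and 1502 normalized counts in controls and 1309.9, 1256 and 1377 in mutants on vehicle, with a log2 fold change of -0.20 ± 0.11 that did not pass (limma adjusted p = 0.605).

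Hoxc4, an anterior Hoxc gene, measured 518, 649 and 574 normalized counts in controls 1 to 3, 1230.3, 2018 and 1765 in mutants on vehicle, and 1567, 1606 and 1208 in mutants on rapamycin. Every mutant library was above every control. The log2 fold change of mutants on vehicle over controls was 1.50 ± 0.19 (SE), 2.83-fold, with an adjusted p of 0.00274 in limma. Hoxc5 lies next to it and measured 441, 312 and 281 in controls, 615, 895 and 672 in mutants on vehicle and 569, 626 and 498 in mutants on rapamycin. Again no mutant library reached down to the controls, and the log2 fold change was 1.08 ± 0.20 with a limma adjusted p of 0.0246. Hoxc6 measured 1001, 611 and 555 in controls, 1569.9, 1614 and 1360.0 in mutants on vehicle and 1682, 1918 and 1621 in mutants on rapamycin. Control 1 was the highest control, yet below all mutants, and the log2 fold change was 1.11 ± 0.20 with a limma adjusted p of 0.0205.

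Hoxc10, whose paralog group serves limb and stromal patterning, measured 1503, 1288 and 1320.1 normalized counts in controls, 2192, 2348 and 2259 in mutants on vehicle and 2612, 2369 and 2445 in mutants on rapamycin. Its libraries were tightly grouped, and it rose by a log2 fold change of 0.73 ± 0.11, 1.66-fold, with a limma adjusted p of 0.00702. Hoxd12, a posterior gene best known from limb and urogenital development, measured 73.7, 103 and 107 in controls, 256, 278 and 259 in mutants on vehicle and 437, 320.3 and 368 in mutants on rapamycin. The 3 groups were fully separated, in the order control, mutant on vehicle, mutant on rapamycin. The log2 fold change of mutants on vehicle was 1.49 ± 0.19, 2.81-fold, with a limma adjusted p of 0.00335. Its neighbours in the cluster did not pass: Hoxd11 had 0.40 ± 0.15 (adjusted p = 0.313 in limma), Hoxd10 0.50 ± 0.13 (0.110) and Hoxd13 -0.04 ± 0.52 (0.995).

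The other Hoxc genes were higher in the mean but did not pass. Hoxc8, singled out after its values were seen, measured 369, 523 and 460.2 in controls and 606, 1176 and 958 in mutants on vehicle. The groups did not overlap, with a log2 fold change of 0.98 ± 0.23 and a limma adjusted p of 0.0765. Hoxc9, posterior to it, had 0.47 ± 0.21 (limma adjusted p = 0.501) and Hoxc11, at the posterior side, 0.35 ± 0.26 (0.779), and both overlapped the controls. Along the cluster the log2 fold change was thus largest at Hoxc4 and smallest at Hoxc11 among tested members, a description over 7 genes. The fall was not steady, as Hoxc10 at 0.73 lay above Hoxc9. In mutants on rapamycin against controls the smallest was that of Hoxc9, at 0.09, with Hoxc10 at 0.85. The labels do not say what a replicate number pairs, and the main fit has no block on it. Same-numbered control and mutant vehicle libraries deviated alike to varying degrees, with correlations given below. With the number as a block over all 9 libraries, limma called 6 members, the same 5 and Hoxc8. With the block in only the 6 libraries of these groups it called 10 higher, adding Hoxb3, Hoxc8, Hoxc9, Hoxd10 and Hoxd11, but also 1398 of all genes instead of 279. Hoxc4 and Hoxd12 passed without any 1 library. Hoxc10 missed without mutant vehicle 2 (limma adjusted p = 0.0615). Hoxc6 missed without control 2, control 3 or mutant vehicle 2, with limma adjusted p of 0.112, 0.0540 and 0.123. Hoxc5 missed in 5 of the 9 such fits, with a limma adjusted p of up to 0.141, and the count of called members went from 5 to 3, 3 and 2 without control 2, control 3 and mutant vehicle 2.

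**Figure D2:**
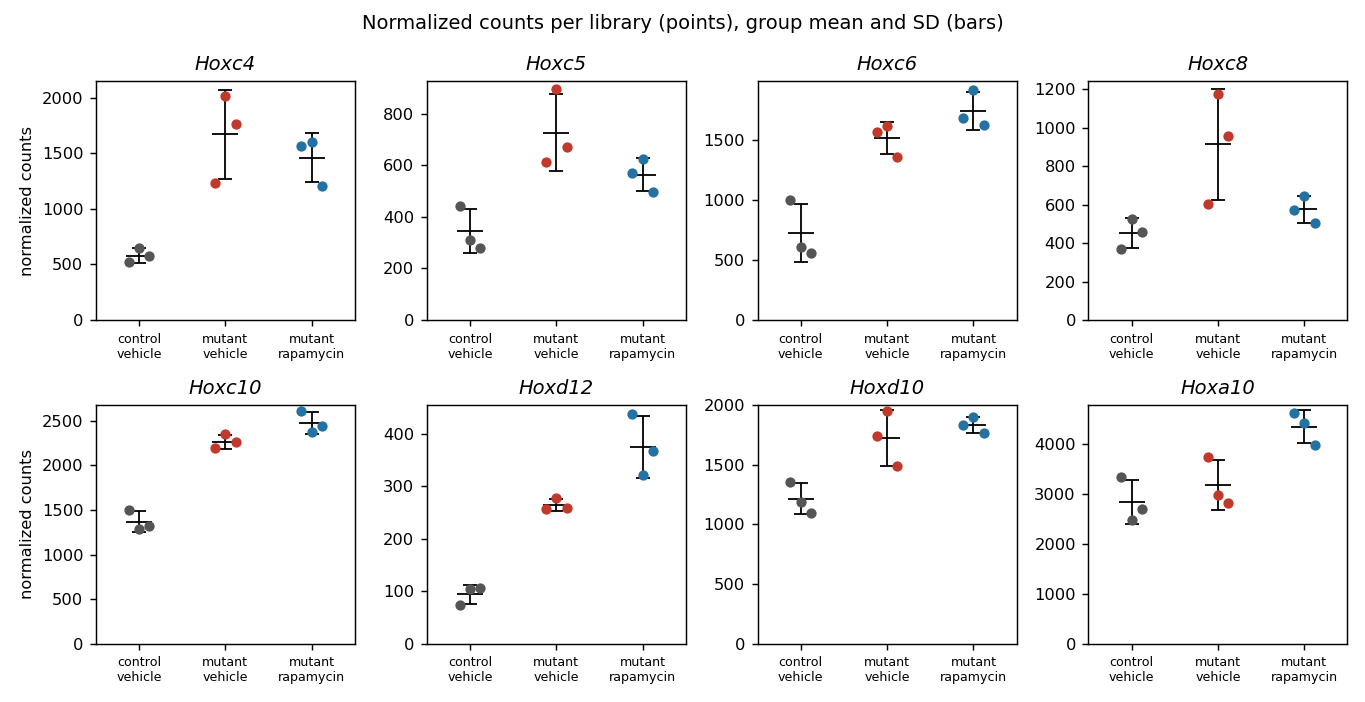
Normalized counts (linear axis from 0) of the 7 members called in any comparison and of Hoxc8, with 1 point per library and bars for the group mean and SD of 3 libraries. Hoxc4, Hoxc5, Hoxc6, Hoxc10 and Hoxd12 are higher in all 6 mutant libraries than in all 3 controls, and Hoxa10 is above all 6 vehicle libraries in the 3 libraries of mutants on rapamycin.

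Genes known in kidney development did not pass in this comparison outside Hoxc10. Hoxd10 and Hoxd11 came closest, with limma adjusted p of 0.110 and 0.313, and Hoxd10 did not overlap the controls. Hoxa11 measured 1268, 1126 and 1361 in controls and 1285, 1479.5 and 1338 in mutants on vehicle, with a log2 fold change of 0.13 ± 0.13 and a limma adjusted p of 0.870. Hoxb7 measured 611, 823 and 872 in controls and 718, 727 and 777 in mutants on vehicle, so the ranges overlap, with a log2 fold change of -0.04 ± 0.15 and a limma adjusted p of 0.980. Beside it, 5 of 10 ureteric and collecting duct markers fell, and none rose, with summed levels of 7262 to 8480 normalized counts in controls and 4677 to 5748 in mutants on vehicle. In mutants on rapamycin Hoxb7 measured 587, 623 and 641, below all mutants on vehicle, and the marker sums were 6831 to 8022. Between the mutant groups Hoxb7 had -0.26 ± 0.15 (limma adjusted p = 0.533), while 5 of the 10 markers rose and none fell. The part of these markers in the Hoxb7 values was not tested. Hoxb3, the most counted member of the Hoxb cluster, measured 1974, 2597 and 2237 in controls, 2206, 3502 and 3483 in mutants on vehicle and 2354, 2693 and 2371 in mutants on rapamycin. Mutant vehicle 1 lay within the controls while the other two lay above them. The Hoxb3 log2 fold change of 0.41 ± 0.18 (adjusted p = 0.466 in limma) and those of Hoxb9, Hoxa9 and Hoxd9, all adjusted p 0.696 or above, did not pass either.

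Rapamycin given to mutants was compared with vehicle given to mutants next. No member passed, beside 0.3% of all genes called, or 59, with 0.244% higher and 0.056% lower. limma-voom called 0 members too, and the unadjusted p was under 0.05 for 5 members (Hoxa7, Hoxa10, Hoxa11, Hoxc8 and Hoxd12), 14.7%, beside 11.7% of all genes. The members' median log2 fold change was -0.03, with 16 of 34 above 0. The groups did not overlap in 9 members, 7 higher and 2 lower, beside 18.4% of all genes, 9.41% higher and 9% lower. For Hoxc4 the 95% interval of the log2 difference ran from -0.59 to 0.24, for Hoxc10 from -0.11 to 0.36 and for Hoxd12 from 0.07 to 0.92. These intervals do not show that the levels were alike. Hoxc8 had -0.62 ± 0.23 with a limma adjusted p of 0.321, and its rapamycin libraries measured 575, 645 and 507.

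Hoxa10, the most abundant member of the Hoxa cluster, measured 3330.1, 2470.1 and 2704 in controls, 3743, 2966 and 2817 in mutants on vehicle and 4623, 4417 and 3984 in mutants on rapamycin. Every rapamycin library was above every vehicle library, with a log2 difference of 0.46 ± 0.15 and a limma adjusted p of 0.246. Hoxa11 was likewise 1981, 1591 and 1707 on rapamycin, above all 6 others, with 0.36 ± 0.13 and a limma adjusted p of 0.288. Beside these members, the 10 stromal markers summed to 126422 to 143085 normalized counts in mutants on vehicle and 189917 to 241706 on rapamycin, and 1 of them passed, which was Col1a1, a fibrillar collagen gene. Of 10 ureteric and collecting duct markers 5 rose and none fell, with sums of 4677 to 5748 on vehicle and 6831 to 8022 on rapamycin. No proximal tubule or endothelial marker passed. The 8 proximal tubule markers summed to 21569 to 24418.5 and 28741 to 40119, the 5 endothelial ones to 12452 to 15879 and 17495 to 23273. None of 5 leukocyte markers lay above 0 in log2 difference. The part of these cell types in the Hoxa10 and Hoxa11 values was not tested.

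Mutants on rapamycin were also compared with controls, which are the same libraries as in the first comparison. Of 34 members, 6 rose and none fell, 17.6%, beside 3.24% of all genes called in either direction, 2.3% higher and 0.941% lower. They were Hoxa10, Hoxc4, Hoxc6, Hoxc10, Hoxd10 and Hoxd12. The members' median log2 fold change was 0.21, against -0.00 for all genes, with 20 of 34 above 0. The groups did not overlap in 16 members, 13 higher and 3 lower, beside 23.1% of all genes, 12.4% higher and 10.8% lower. The 3 lower members were Hoxa2, Hoxa7 and Hoxb2, and none of them passed the test. By cluster, 1 of 10 Hoxa, 0 of 8 Hoxb, 3 of 7 Hoxc and 2 of 9 Hoxd genes passed. Beside these calls, 4 of 10 stromal markers rose, the collagen genes Col1a1, Col1a2 and Col3a1 and the smooth muscle gene Tagln. All 10 lay above 0, with a median log2 fold change of 0.60 and sums of 134021 to 149524 normalized counts in controls, against the 189917 to 241706 on rapamycin given above. Of the other marker lists, 4 of 6 nephron progenitor, 2 of 8 proximal tubule (Lrp2 and Slc22a6), 1 of 5 endothelial (Kdr) and 1 of 3 cartilage markers rose, and of 10 ureteric and collecting duct markers 1 rose (Wnt11) and 1 fell (Emx2). The part of these cell types in the Hox values was not tested.

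Hoxd12 had the highest fold change, 1.98 ± 0.19 on the log2 scale, 3.96-fold, with a limma adjusted p of 4.18e-04. Hoxc4 had 1.32 ± 0.19 (limma adjusted p = 0.00450), Hoxc6 1.31 ± 0.20 (0.00597) and Hoxc10 0.85 ± 0.11 (0.00217). These 4 passed in all 9 fits with a library left out. Hoxd10, a limb and kidney gene, measured 1354, 1192 and 1098 in controls, 1738, 1955 and 1488 in mutants on vehicle and 1837, 1902 and 1764 in mutants on rapamycin. All rapamycin libraries were above the controls, with 0.60 ± 0.13 and a limma adjusted p of 0.0325. Hoxa10 had 0.62 ± 0.15 with a limma adjusted p of 0.0444. Hoxd10 missed in 5 and Hoxa10 in 6 of the 9 fits with a library left out, with limma adjusted p of up to 0.137 and 0.205. Hoxa11, Hoxd11 and Hoxc5 missed, at limma adjusted p of 0.0625, 0.0643 and 0.0795. Without control 1, limma called 9 members, 8 higher, with Hoxc5 and Hoxd11 added, and 1 lower, which was Hoxa7.

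**Figure D3:**
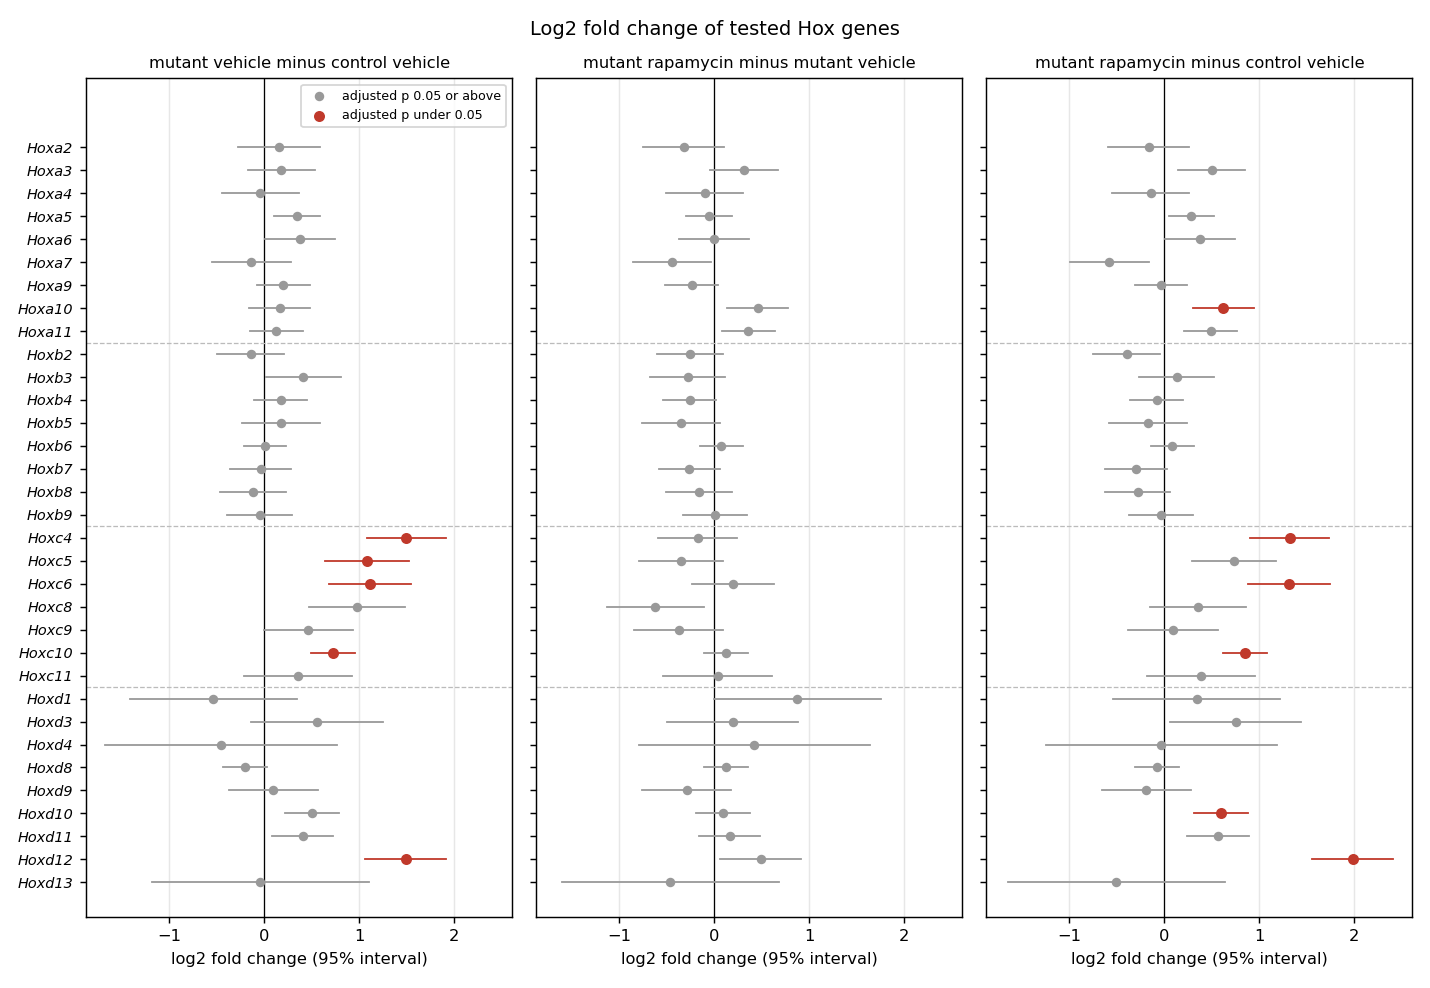
Log2 fold change with its 95% interval for tested members in the 3 comparisons, ordered by cluster and paralog number, with members at an adjusted p under 0.05 in red. The red points are Hoxc4, Hoxc5, Hoxc6, Hoxc10 and Hoxd12 on the left, none in the middle, and Hoxa10, Hoxc4, Hoxc6, Hoxc10, Hoxd10 and Hoxd12 on the right.

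Summed over the whole cluster, Hoxc went from 4356 ± 198 normalized counts (SD, n = 3) in controls to 8320 ± 1229 in mutants on vehicle and 7793 ± 514 in mutants on rapamycin. Hoxd went from 6242 ± 139 to 7419 ± 394 and 7683 ± 229. Hoxa stood at 9001 ± 347, 10107 ± 618 and 11269 ± 656. In each of these 3 clusters every mutant library was above every control, by the least in Hoxa, where the highest control was 9339 and the lowest mutant 9394. Hoxb stood at 11588 ± 1273, 12263 ± 1885 and 10794 ± 418, so its groups overlap. The Hox10 sum per kb was 2362, 3280 and 3820 in the same order, and that of Hox11 was 1092, 1314 and 1553.

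The Hoxc cluster lies at chr15:102921103-103036852 in the deposited coordinates (GRCm38). Its nearest other protein-coding genes with tests are Calcoco1 and Atp5g2 on the Hoxc13 side and Smug1 and Cbx5 on the Hoxc4 side. Smug1, a DNA glycosylase gene 116438 bases from the Hoxc4 end, rose in mutants on vehicle, from 608 ± 16.1 to 1122 ± 187 normalized counts, with a log2 fold change of 0.87 ± 0.14 and a limma adjusted p of 0.0115. Cbx5 (-0.16 ± 0.18), Calcoco1 (0.22 ± 0.13) and Atp5g2 (-0.22 ± 0.17) did not pass, with limma adjusted p of 0.902, 0.699 and 0.789. In mutants on rapamycin, Smug1 measured 849 ± 20.0 and did not pass. Its log2 fold change there was 0.48 ± 0.14 against controls (limma adjusted p = 0.0919) and -0.39 ± 0.14 against mutants on vehicle (0.296). No tested neighbour of the other clusters passed in any comparison. Of the antisense transcripts, Hoxb3os, which overlaps Hoxb3 and Hoxb2, fell by 0.89 on the log2 scale in mutants on rapamycin against controls (limma adjusted p = 0.0453). In that comparison Hoxb3 had 0.13 ± 0.18 and Hoxb2 -0.40 ± 0.16, and neither passed. Hotair, the long non-coding RNA between Hoxc11 and Hoxc12, measured 19.7 ± 6.39 normalized counts in controls and 32.8 ± 9.48 in mutants on vehicle and did not pass (limma adjusted p = 0.679).

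**Figure D4:**
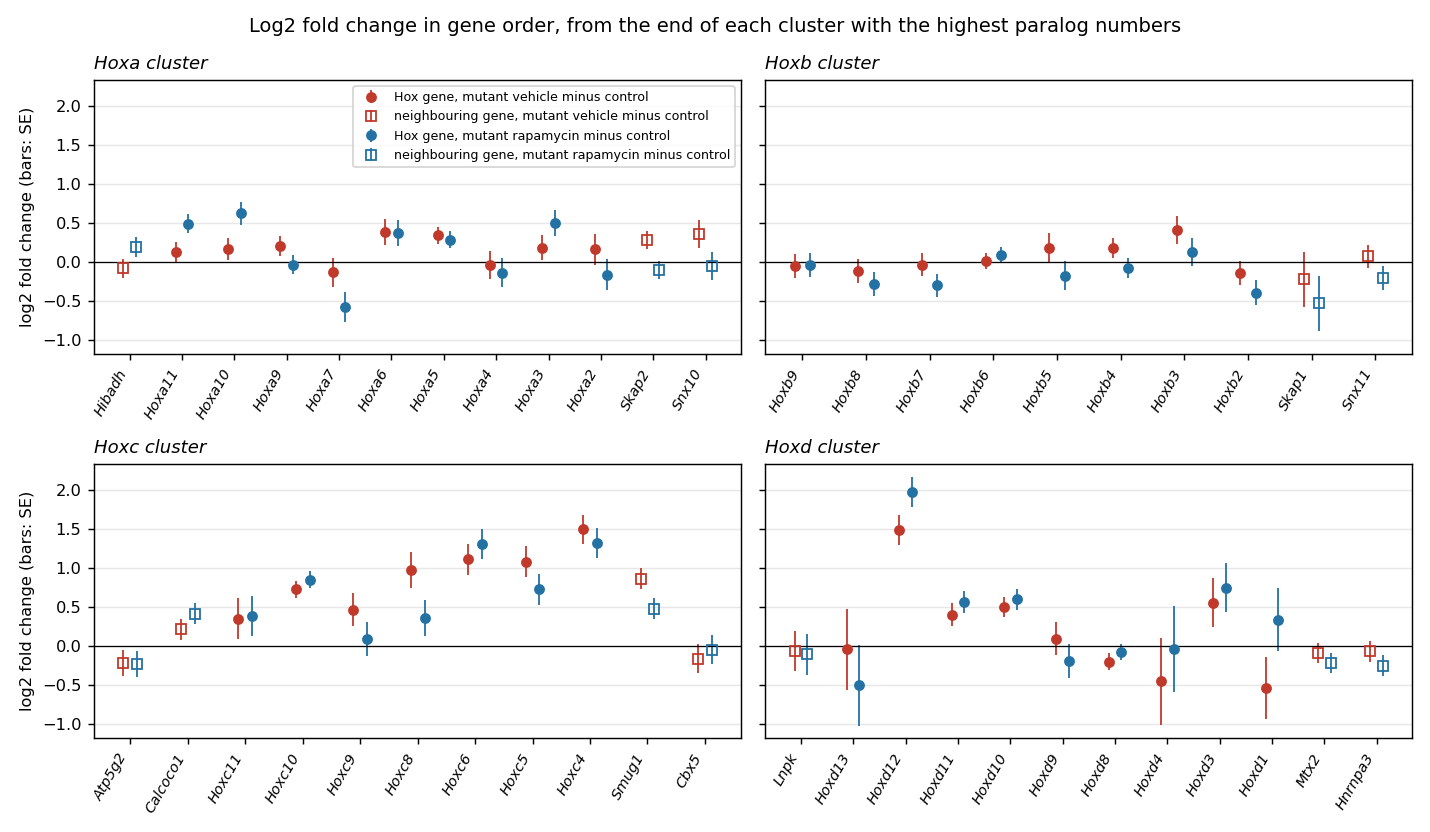
Log2 fold change (points, with SE bars) of tested members and the nearest tested protein-coding genes (open squares) in gene order, from the end of each cluster with the highest paralog numbers, for mutants on vehicle (red) and mutants on rapamycin (blue), both against controls. In the Hoxc panel the red points are highest at Hoxc4 and lowest at Hoxc11, and in the Hoxd panel Hoxd12 stands apart from its neighbours.

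Promoter windows of 300 bases, 250 before to 50 after the start site, were found in the RefSeq table (GRCm38.p6) for 22 of the 39 names, in 24 windows. The 2 members with the largest called changes are shown, 5′ to 3′ on the plus strand, Hoxc4 at chr15:103034145-103034444 and Hoxd12 at chr2:74674763-74675062. The Hoxc4 window is at a downstream start site inside the gene, whose deposited row begins at base 103018934. Capitals mark CCAAT or its reverse complement.
Hoxc4: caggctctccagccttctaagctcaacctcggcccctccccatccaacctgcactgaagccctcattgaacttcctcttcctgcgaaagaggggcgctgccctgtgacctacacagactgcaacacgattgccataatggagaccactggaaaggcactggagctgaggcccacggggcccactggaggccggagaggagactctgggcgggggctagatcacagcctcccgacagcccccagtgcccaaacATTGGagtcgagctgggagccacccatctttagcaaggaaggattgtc
Hoxd12: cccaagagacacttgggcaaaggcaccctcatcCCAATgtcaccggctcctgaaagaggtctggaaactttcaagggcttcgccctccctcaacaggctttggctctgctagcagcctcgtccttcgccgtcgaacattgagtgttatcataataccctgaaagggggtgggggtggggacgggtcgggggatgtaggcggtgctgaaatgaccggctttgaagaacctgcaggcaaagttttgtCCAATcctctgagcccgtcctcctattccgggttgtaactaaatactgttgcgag
The CCAAT letters were in 15 of 24 Hox windows (62.5%), against 37.4% of all 32851 windows, on either strand. The letters TGATNNAT of a PBX-HOX composite site were in 4 (16.7%), against 8.85%, and neither promoter printed here held them. TATAAA was in 4 (16.7%), against 13.6%. The Hox windows had a median GC content of 57.6% and 14.5 CG pairs, against 52.7% and 7 in all windows. These are matches of letters, not measured binding.

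Lists of genes that act with Hox genes are given by their counts, with the share of all genes called beside them above. Of 9 TALE cofactors, the PBX, MEIS and PREP proteins that bind DNA with Hox proteins, none passed in any comparison, and the median log2 fold change was 0.04 in mutants on vehicle against controls. Of 21 tested Polycomb and Trithorax genes, which keep Hox clusters silent or active, none passed in mutants on vehicle, and 1 rose in mutants on rapamycin against controls, the H3K27 demethylase gene Kdm6b, with 0.62 ± 0.12 and a limma adjusted p of 0.0213. Of 14 tested genes of retinoic acid signalling and Cdx factors, 1 rose in mutants on vehicle, the retinol transporter gene Stra6, with 0.78 ± 0.17 and a limma adjusted p of 0.0468. In mutants on rapamycin against vehicle, 2 rose, the receptor gene Rarg (0.79 ± 0.13, limma adjusted p = 0.0281) and the retinoic acid hydroxylase gene Cyp26b1 (0.93 ± 0.14, 0.0243). In mutants on rapamycin against controls, 3 rose, which were Stra6 (1.40 ± 0.17), Rarg (0.62 ± 0.13) and Cyp26b1 (0.84 ± 0.14), with limma adjusted p of 0.00158, 0.0262 and 0.0119, and 12 of the 14 lay above 0 with a median of 0.38.

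Of 7 tested genes of the Hox11 network in the kidney, 2 rose in mutants on vehicle, Six2 with 1.59 ± 0.13 and Eya1 with 1.66 ± 0.15 on the log2 scale (limma adjusted p = 2.11e-04 and 2.69e-04). Gdnf, the ligand of the ureteric bud receptor Ret and a known Hox11 target, had -0.54 ± 0.28 (limma adjusted p = 0.590). The 6 nephron progenitor markers, of which 4 rose in mutants on vehicle and none fell, summed to 2975 to 3273 normalized counts in controls, 7598 to 9915 in mutants on vehicle and 9679 to 12097 in mutants on rapamycin. Both they and the Hoxc sums were higher in either mutant group than in controls. Between the mutant groups 5 of the 6 markers were above 0 in log2 difference, with a median of 0.32. The Hoxc genes had a median of -0.18 there, with 3 above 0 and 4 below. No marker of this list and no Hoxc gene passed between the mutant groups. The markers that define the list, Six2 and Eya1 among them, were not at 0 in any group, and the part of cell mixture in the Hoxc result was not tested. Of 3 cartilage markers 1 rose, the matrilin gene Matn1, from 1.04 ± 1.11 normalized counts in controls to 59.1 ± 22.5 in mutants on vehicle (limma adjusted p = 3.76e-04). Of 8 proximal tubule markers 1 rose, the transporter gene Slc5a12, and none of the tested stromal, skeletal muscle, neural, adrenal, leukocyte and endothelial markers passed there.

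The authors' deposited table of DESeq2 comparisons has an adjusted p for 35 members. In that table, 7 members were higher in mutants on vehicle than in controls, the same 5 with Hoxc8 and Hoxd10, and none lower. The authors' deposited table calls 0 members between rapamycin and vehicle in mutants, and 9 higher in mutants on rapamycin than in controls, adding Hoxa11, Hoxc5 and Hoxd11 to the 6 named above.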

How the data were processed

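RNA of 9 libraries was deposited as 1 table of 54838 genes. Per the submitters' processing notes, DESeq2 1.22.1, HTSeq 0.6.0, TopHat2 2.1.1 and cutadapt 1.18 were used with the build GRCm38, and no source used here gives their options or the annotation. The deposited table holds the authors' raw counts, with a mark in place of a count for 6252 genes, their normalized counts (raw counts divided by 1 size factor per library, 0.874 to 1.19) and their log2 fold changes and p-values. Their adjusted p is quoted only where the authors' deposited table is named.

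Here log2(normalized count + 1) was tested with limma 3.58.1 (trended, robust, statmod 1.5.0, R 4.3.3) over all 19656 genes with a mean of at least 5, in 1 fit of 3 group means over 9 libraries, called at a Benjamini-Hochberg adjusted p under 0.05. The fold change of genes with few counts is understated on this scale. edgeR and DESeq2 were planned as alternatives and were not run here, while limma-voom was run on the raw counts of the same genes. Members and lists were chosen with earlier results of these data known. Replicate numbers come from the labels. Deviations of same-numbered libraries from their group means correlated at 0.428, 0.137 and 0.445 between controls and mutants on vehicle. Differently numbered libraries of these groups correlated at -0.450 to 0.0647. Deviations from a mean of 3 libraries are not independent, so these values do not establish a pairing. Same-numbered libraries correlated at -0.134, 0.0768 and 0.0614 between rapamycin and vehicle mutants, and at -0.338, -0.0139 and 0.218 between rapamycin mutants and controls. Differently numbered libraries of rapamycin mutants and controls correlated at -0.501 to 0.471, highest for mutant rapamycin 2 with control 1. Libraries of a group differed by more than sampling noise (lowest chi-square per degree of freedom 15.6), so none was counted as a duplicate. Genes named were members called in any comparison, paralog groups 9 to 11, Hoxb7, the member with the highest mean normalized count in each cluster, list genes and cluster neighbours. Sequences came from GENCODE M21 transcripts and the RefSeq promoter table, read with Biopython 1.88. Coordinates are those of the deposited table, and 38 of the 40 member rows have the same ones in GENCODE M21. The values of 1 member and the homeobox stretch of another are not reported here.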

Additional observations from a re-analysis of the deposited data

How the results depend on the processing

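The count of members called in mutants on vehicle against controls was 5. It was 3 with only the 6 libraries of those groups and 10 with the replicate block in those 6 libraries, an alternative added after seeing the data. With the replicate block over all 9 libraries it was 6. Leaving out each library in turn gave 2 to 6. In mutants on rapamycin against controls, the count of 6 became 8 with the block over 9 libraries, 7 higher and 1 lower, which was Hoxa7. It was 5 with only the 6 libraries of those groups, where Hoxa10 missed (limma adjusted p = 0.0546). With the block in those 6 libraries it was 4, and without each library 4 to 9. Same-numbered libraries did not deviate alike throughout in this comparison, nor between rapamycin and vehicle mutants, where every fit called 0. Whether they are paired is not in the labels. Over all genes, the first comparison's 279 calls became 99 with only 6 libraries, 405 with the block and 1398 with the block in 6, and ranged from 81 to 336 without each library. The 59 calls between mutants became 87 with only 6 libraries, 206 with the block, 7 with the block in 6 libraries and 0 to 200 without each library. The 637 calls of the third became 455 with only 6 libraries, 1090 with the block, 418 with the block in 6 and 175 to 1131 without each library. Scaling by library totals, added after seeing the data, left the 3 counts of members as they were, as did an offset of 0.5, no filter and limma-voom. The TMM factors, edgeR and DESeq2 alternatives were not run.

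Of 816 values of named members under the alternatives, 753 kept their direction and their side of the threshold, 27 no longer passed, 8 newly passed and 28 changed sign. All 28 belong to values near 0 that were not called. Without each library in turn, the log2 fold change in rapamycin mutants against controls ran from -0.1279 to 0.0130 for Hoxa9, -0.1705 to 0.0295 for Hoxb9 and -0.0209 to 0.2153 for Hoxc9. In mutants on vehicle against controls it ran from -0.1946 to 0.0617 for Hoxb7, -0.1825 to 0.0647 for Hoxb9 and -0.0941 to 0.3203 for Hoxd9. Between mutants it ran from -0.1035 to 0.1437 for Hoxb9, -0.1937 to 0.1512 for Hoxc11 and -0.0076 to 0.189 for Hoxd10. Without both control 1 and mutant rapamycin 2, it was -0.0289 for Hoxb3 in rapamycin mutants against controls, -0.0104 for Hoxc11 between mutants and -0.0941 for Hoxd9 in mutants on vehicle against controls. Under library totals it was 0.0171 for Hoxb7 and 0.0053 for Hoxb9 in mutants on vehicle against controls, and -0.0544 for Hoxb9 and -0.0303 for Hoxc11 between mutants. The cause was not tested. Depth limits Hoxd1 and Hoxd13, at under 30 normalized counts in any library. Hoxd4 was also under 30 in any library, and its counts are uncertain for the reasons given with the shared windows.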
